A study of Mus musculus with 34 samples.

Results

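The 10 genes described here encode the ligands and receptors of VEGF, angiopoietin and apelin signalling, and were taken by symbol: Vegfa, Vegfb, Kdr, Flt1, Angpt1, Angpt2, Tek, Tie1, Apln and Aplnr. All 10 were listed among 14552 genes in the uninjected hearts and among 17406 genes in a second set with modified mRNA (modRNA), and all 10 had a mean of at least 1 CPM (read counts relative to library size) in both. RNA-seq was made from the heart left ventricle (LV) of CFW mice, an outbred stock, in which myocardial infarction (MI) was caused by tying off the left anterior descending (LAD) artery for good. The uninjected set held 3 sham hearts (D, H and I), 3 hearts at 4 h post-MI (C, D and E) and 4 hearts at 24 h post-MI (C, D, G and H). By the paper, a piece of the ischemic area of these hearts, or of the matching area of sham hearts, was sequenced. Their values are thus not of the whole LV. The labels of these sham hearts name no operation, whereas the paper calls them sham operated. The modRNA set held 2 sham-operated, uninjected hearts labelled 4 h, and MI hearts given an injection of AC or Luc modRNA into the border zone right after ligation, collected at 4 h (4 AC and 4 Luc), 24 h (3 AC and 3 Luc) and 48 h (4 AC and 4 Luc). Luc is luciferase, a reporter used as the control modRNA, and the labels do not spell out AC. The set has neither an MI heart without injection nor an injected sham heart, so the Luc hearts against sham carry ligation, injection and Luc modRNA together.

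VEGF-A is the main mitogen of endothelial cells and acts through the tyrosine kinase receptor VEGFR2, encoded by Kdr, while VEGFR1, encoded by Flt1, binds VEGF-A and VEGF-B and can act as a trap for them. Angiopoietin 1 activates the endothelial receptor TIE2, encoded by Tek, and keeps vessels quiescent, whereas angiopoietin 2, stored and released by endothelial cells, mostly antagonizes it, with TIE1 as a co-receptor. Apelin is a peptide of endothelial and other cells whose G-protein-coupled receptor APJ, encoded by Aplnr, is found on endothelium and heart muscle and is linked to vessel growth and contractility.

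Differences were tested by limma, one fit for each set, on log2(CPM + 1), and a gene was called at a q value (Benjamini-Hochberg adjusted p) under 0.05 over all genes tested. On this scale the fold change of a low gene is understated. An estimated 12553519 to 18952669 reads on the listed genes stood behind each uninjected library. This takes the lowest value of a library, 0.0313 to 0.0479 CPM, as 1 read. Reads outside the listed genes are not counted in it, so it is not the whole depth of a library. The depth of the modRNA libraries is unknown. The summed level of 10 cardiomyocyte markers was between 58240 and 62970 CPM in the uninjected sham hearts and between 63650 and 67580 CPM in the other sham hearts. That of 18 endothelial markers was between 944.9 and 964.7 CPM and between 1052 and 1239 CPM. No other part of the heart was compared, so these sums do not test the LV label. MI 24 h heart G stood apart from the other 3 hearts of its group, with the highest cardiomyocyte sum (44130 against 27480 to 34680 CPM) and the lowest sum of 10 neutrophil and monocyte markers (519.9 against 1133 to 2335 CPM), so each member's value against sham is also given without it. Only the titles of the 24 h libraries of the modRNA set carry "Br", which the labels do not explain. In the modRNA set, the titles of sham and 4 h libraries, of 24 h libraries and of 48 h libraries follow 3 naming series, so time and series cannot be told apart, whereas AC and Luc at a given time share a series. The labels do not say that the modRNA libraries came from separate animals, so p-values there measure only the spread between these samples.

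In the uninjected sham LV, VEGF ligand transcripts stood far above the other members. Per kilobase of annotated exon, Vegfb was at 89.7 ± 5.72 CPM (SD, n = 3) and Vegfa at 54.5 ± 15.6 CPM. The receptors Kdr (16.2 ± 1.09 CPM per kb) and Aplnr (14.2 ± 2.72 CPM per kb) came next, and their libraries overlapped. Tek and Tie1, whose products form a receptor pair, were at 10.1 ± 0.429 and 10.1 ± 0.492 CPM per kb. Apln (5.72 ± 1.94), Flt1 (4.92 ± 0.731) and Angpt1 (4.42 ± 0.946 CPM per kb) overlapped one another, and Angpt2 was lowest at 1.10 ± 0.108 CPM per kb. Vegfb, Vegfa and Angpt2 overlapped no other member on this scale. The length is that of all annotated exons of a gene, so a gene read mostly as a short transcript, as the soluble form of Flt1 would be, is placed too low.

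**Figure D1:**
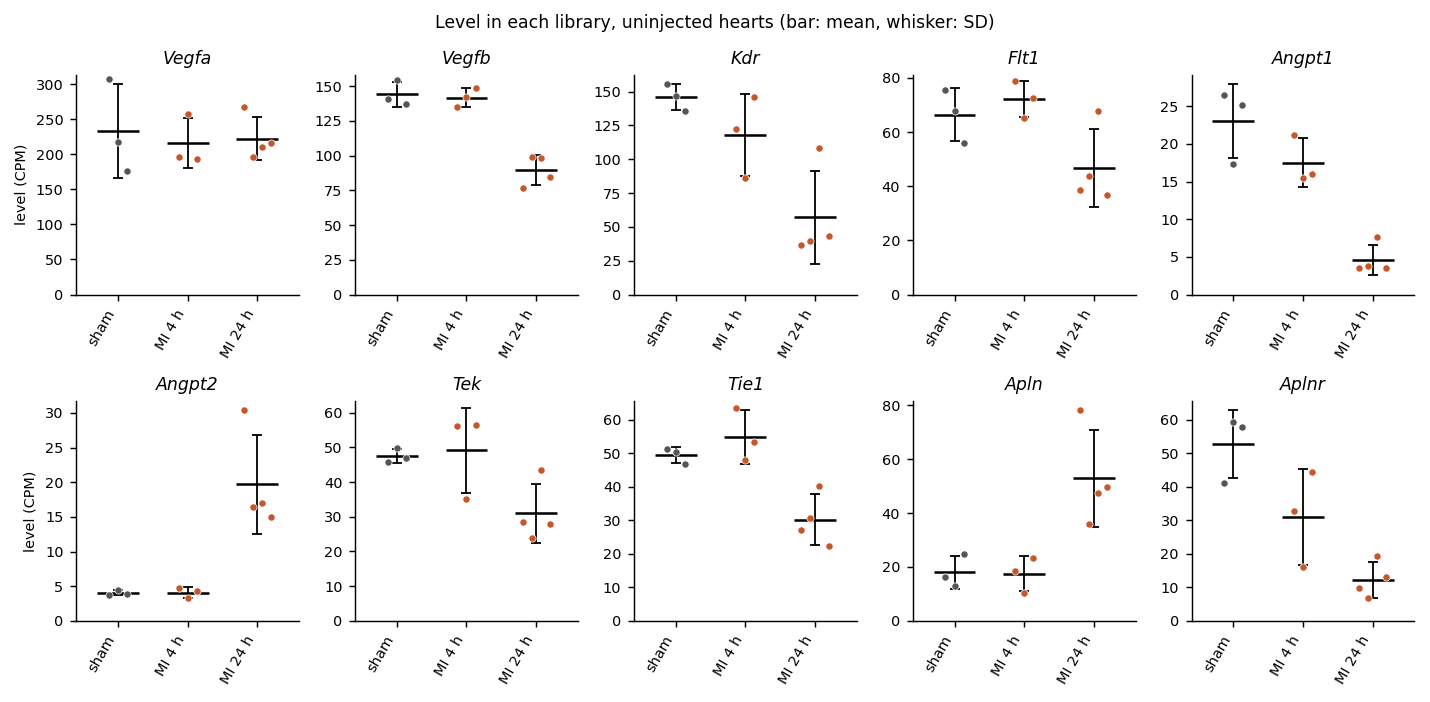
Level of each member (CPM, linear axis from 0) in each library of the uninjected hearts, for sham, MI 4 h and MI 24 h, with points for libraries, bars for the mean and whiskers for the SD. At 24 h post-MI, Angpt2 and Apln sit above all sham libraries, 6 members sit below all of them, Flt1 overlaps sham through a single high heart, and Vegfa overlaps throughout.

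At 24 h post-MI, 9 of the 10 members differed from sham, Angpt2 and Apln upward and Vegfb, Kdr, Flt1, Angpt1, Tek, Tie1 and Aplnr downward. Vegfa was the only member not called. These counts stand beside a background in which 66% of all genes tested were called, 35.6% higher and 30.3% lower, to be read against 2 of 10 members higher and 7 of 10 lower, a comparison made without a test. The libraries of 2 members lay wholly above sham and those of 6 wholly below, where 35.3% of all genes tested lay wholly above and 28.7% wholly below. The median log2 fold change was -0.66 over the members and 0.04 over all genes. All of these are values from bulk tissue, in which fewer cells of a type and less RNA per cell cannot be told apart.

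Among the VEGF ligands, Vegfa (chromosome 17, 46016993 to 46032378, mm10) was at 307, 218 and 176 CPM in sham hearts D, H and I, and at 268, 197, 210 and 216 CPM in MI 24 h hearts C, D, G and H. All 4 MI hearts lay within the sham range, and the log2 fold change was -0.04 (SE 0.19, q = 0.854), and -0.02 without heart G (q = 0.943). Vegfb (chromosome 19, 6982472 to 6987652), which is abundant in heart muscle, was at 140, 154 and 137 CPM in sham and at 76.8, 99.1, 97.9 and 84.4 CPM at 24 h. All 4 MI hearts were under all 3 sham hearts, and Vegfb fell by 0.69 on the log2 scale (SE 0.11, q = 0.000179), and by 0.73 without heart G.

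Both VEGF receptors fell. Kdr (chromosome 5, 75933270 to 75978429) was at 156, 147 and 136 CPM in sham and at 36.5, 39.8, 108 and 43.1 CPM at 24 h, and heart G held the 108 CPM. The groups did not overlap, and Kdr fell by 1.49 on the log2 scale (SE 0.32, q = 0.00159), and without heart G it fell by 1.85 (SE 0.16, q = 1.76e-06). Flt1 (chromosome 5, 147562196 to 147725989) was at 75.6, 67.8 and 56.0 CPM in sham and at 38.5, 43.6, 67.7 and 36.8 CPM at 24 h. Heart G lay within the sham range, and Flt1 fell by 0.53 (SE 0.19, q = 0.0272), and without heart G it fell by 0.72 (SE 0.12, q = 0.000278). The Flt1 call was lost on leaving out MI 24 h heart C, D or H or sham heart D or H, with q values between 0.0550 and 0.104.

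The angiopoietins moved in opposite directions. Angpt1 (chromosome 15, 42424667 to 42676978) was at 26.5, 17.4 and 25.2 CPM in sham and at 3.49, 3.79, 7.57 and 3.50 CPM at 24 h. It was about 5.02 times lower in group means and fell by 2.14 on the log2 scale (SE 0.24, q = 1.39e-05), the largest fall of the 10 members, and without heart G it fell by 2.37 (SE 0.17, q = 3.66e-07). Angpt2 (chromosome 8, 18690263 to 18741563) was at 3.80, 4.52 and 3.87 CPM in sham and at 30.4, 16.5, 17.0 and 15.0 CPM at 24 h. Every MI heart held more than the highest sham heart, heart C by the widest margin, and the mean was 4.85 times that of sham (log2 fold change 1.98, SE 0.21, q = 1.12e-05), and the log2 fold change was 2.03 without heart G.

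The ratio of Angpt2 to Angpt1 within a library, which needs no scaling between libraries, was between 0.143 and 0.260 in sham hearts and between 2.24 and 8.71 at 24 h post-MI. Angpt1 was the higher of the pair in all 3 sham hearts and all 3 hearts at 4 h (0.211 to 0.267), and Angpt2 was the higher in all 4 hearts at 24 h. This is a ratio of CPM and not of levels per length. It is another reading of the same values and is given without a test of its own.

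**Figure D2:**
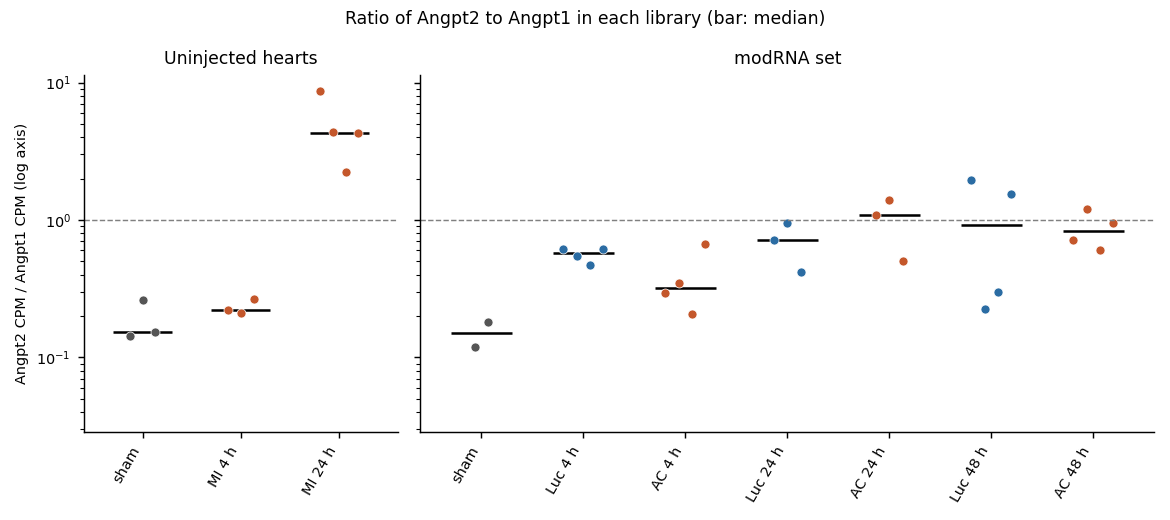
Ratio of Angpt2 CPM to Angpt1 CPM in each library on a log axis, with the uninjected hearts on the left and the modRNA set on the right, points for libraries, bars for group medians and a dashed line at equal CPM. The 4 MI 24 h hearts lie between 2.24 and 8.71, above every other library shown, and the Luc 48 h libraries fall into a high and a low pair.

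The angiopoietin receptors were lower at 24 h. Tek (chromosome 4, 94739289 to 94874977) was at 45.8, 49.7 and 47.0 CPM in sham and at 28.6, 24.0, 43.3 and 27.9 CPM at 24 h, and Tek fell by 0.64 (SE 0.20, q = 0.0159), and by 0.80 without heart G (q = 0.000954). Heart G came within a few CPM of sham, and without sham heart H the call was just lost (q = 0.0518). Tie1 (chromosome 4, 118471191 to 118489850) was at 51.4, 50.4 and 46.8 CPM in sham and at 27.1, 30.8, 40.3 and 22.3 CPM at 24 h, and it fell by 0.73 (SE 0.17, q = 0.00266), which kept its call with any library left out and was a fall of 0.88 without heart G (q = 0.000113). For both receptors the groups did not overlap.

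Ligand and receptor of the apelin pair also parted. Apln (chromosome X, 48025146 to 48034854) was at 16.1, 13.1 and 24.9 CPM in sham and at 78.2, 36.1, 47.4 and 49.7 CPM at 24 h, 2.93 times the sham mean (log2 fold change 1.49, SE 0.30, q = 0.00108). Aplnr (chromosome 2, 85136360 to 85139924) was at 41.1, 59.3 and 57.7 CPM in sham and at 9.79, 6.69, 19.3 and 13.2 CPM at 24 h, 4.30 times lower (log2 fold change -2.09, SE 0.35, q = 0.000311). Neither gene's groups overlapped, and without heart G the values were 1.53 for Apln and -2.33 for Aplnr.

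Endothelial markers moved in both directions. Of the 18 endothelial markers, 7 were called higher at 24 h, led by Ecscr (log2 fold change 2.08, q = 4.89e-07), Emcn (1.07) and Cldn5 (0.98), and 4 lower, led by the water channel gene Aqp1 (-1.27, q = 4.14e-05), Myct1 (-1.21) and Sox18 (-0.51), with a median of 0.14. Their summed level was between 944.9 and 964.7 CPM in sham and between 840.4 and 1082 CPM at 24 h. Marker sums of other cell types moved alongside the members. The sum of 9 pericyte and smooth muscle markers went from 1123 to 1279 CPM in sham to 430.9 to 681.5 CPM (4 lower and 1 higher), that of 7 fibroblast markers from 763.3 to 815.2 CPM to 404.3 to 753.6 CPM (4 lower), that of the cardiomyocyte markers to 27480 to 44130 CPM (5 of 10 lower), and that of the neutrophil and monocyte markers from 13.17 to 16.41 CPM to 519.9 to 2335 CPM (10 of 10 higher). Of 5 endocardial and venous markers, 2 were higher and 2 lower, and the same held for 5 lymphatic markers. The endocardial and venous sum went from 43.99 to 64.6 CPM in sham to 66.96 to 109.6 CPM, without overlap. The lymphatic sum was 53.38 to 61.66 CPM in sham and 59.53 to 65.08 CPM at 24 h, with overlap. Every gene listed in this table is above 0 in all its libraries, the markers included, and the part of these cell types in the results for the members was not tested.

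Among 26 other genes of the pathways that could be tested, of 31 symbols, 14 were higher and 5 lower at 24 h, with a median of 0.56. The 3 largest rises were in Angptl4 (133 against 4.41 CPM, log2 fold change 4.90, q = 6.01e-06), an angiopoietin-like protein best known as an inhibitor of lipoprotein lipase, in Pgf (83.8 against 3.76 CPM, 4.08, q = 1.25e-06), which encodes placental growth factor, a ligand of VEGFR1, and in Rcan1 (446 against 87.1 CPM, 2.28, q = 0.000262), a calcineurin regulator induced downstream of VEGF-A. The 3 largest falls were in Nrp1 (66.6 against 155 CPM, -1.28, q = 0.000615), a co-receptor of VEGFR2, in Ptprb (48.8 against 109 CPM, -1.23, q = 0.000897), a phosphatase that acts on TIE2, and in Plcg1 (17.5 against 40.0 CPM, -1.16, q = 1.13e-05), which encodes the phospholipase recruited by VEGFR2. So within the VEGFR1 ligands Pgf rose, Vegfb fell and Vegfa was not called. Of 15 hypoxia-inducible genes tested, 12 were higher and none lower (median 1.17), with the glucose transporter gene Slc2a1 at 3.82 (q = 1.56e-07), the adrenomedullin gene Adm at 3.31 and the oxidoreductase gene Ero1l at 3.15, whereas Vegfa, often counted with such genes, was at -0.04.

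No member was called at 4 h against sham by limma, where 2.37% of all genes were. At an unadjusted p under 0.05 there was 1 member, Aplnr, beside 16.5% of all genes. Aplnr was at 32.8, 15.9 and 44.2 CPM at 4 h, and the highest of these was above the lowest sham heart (log2 fold change -0.84, SE 0.38, q = 0.293). Kdr at 4 h (122, 86.1 and 146 CPM) and Angpt1 at 4 h (21.2, 15.4 and 15.9 CPM) had log2 fold changes of -0.33 and -0.37 and also overlapped sham. Angpt2 was at 4.07 ± 0.741 CPM (SD, n = 3) at 4 h and at 4.06 ± 0.397 CPM in sham. No other gene of the pathway list was called, and of the hypoxia-inducible genes only Adm was. Some marker sums did not overlap sham at 4 h. That of the endothelial markers was 1068 to 1325 CPM (2 of 18 called higher, Sox17 and Cldn5), that of the fibroblast markers 966.0 to 1160 CPM (0 of 7 called) and that of the neutrophil and monocyte markers 25.90 to 62.31 CPM (1 of 10 called higher, Lcn2). These sums lay above sham. The sum of the lymphatic markers lay below it, at 44.65 to 53.29 CPM against 53.38 to 61.66 CPM in sham (0 of 5 called). Their part in the values of the members was not tested.

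From 4 h to 24 h post-MI, the same 9 members were called with the same directions as against sham, 2 higher and 7 lower, beside 63.9% of all genes called, 37.2% higher and 26.7% lower. This comparison shares the 24 h hearts with the one above, so the pair is not independent. The log2 fold changes were 1.98 for Angpt2 (SE 0.21) and 1.56 for Apln (SE 0.30), and -1.77 for Angpt1 (SE 0.24), -1.25 for Aplnr (SE 0.35), -1.16 for Kdr (SE 0.32), -0.87 for Tie1 (SE 0.17), -0.66 for Vegfb (SE 0.11), -0.66 for Flt1 (SE 0.19) and -0.65 for Tek (SE 0.20). Libraries of Kdr, Flt1, Tek and Aplnr overlapped between the times. Tek lost its call without 4 h heart C (q = 0.0661) or E (q = 0.0675), and Aplnr without 4 h heart E (q = 0.0501). Without heart G of the 24 h group the same 9 members were called, at 2.04 for Angpt2, 1.59 for Apln, -1.49 for Aplnr, -1.52 for Kdr, -1.01 for Tie1, -0.71 for Vegfb, -0.85 for Flt1 and -0.82 for Tek, with Angpt1 lower than each of these and Vegfa at 0.07.

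**Figure D3:**
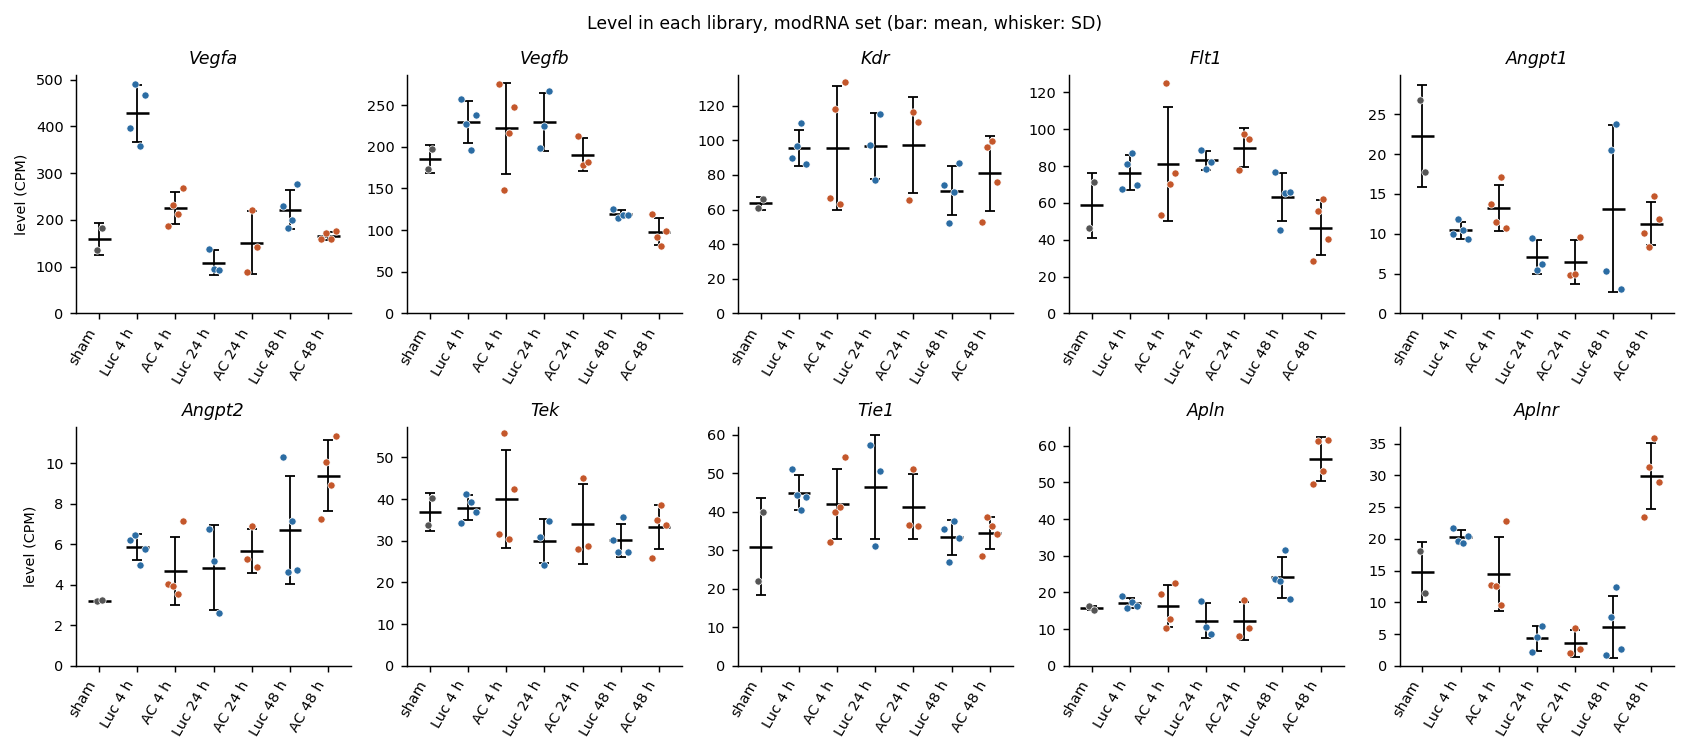
Level of each member (CPM, linear axis from 0) in each library of the modRNA set, for sham (grey), Luc (blue) and AC (orange) at 4, 24 and 48 h post-MI, with points for libraries, bars for the mean and whiskers for the SD. Vegfa is highest in Luc at 4 h, and Apln and Aplnr at 48 h are higher in all 4 AC libraries than in all 4 Luc libraries.

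In the modRNA set, Vegfa was the only member called between Luc at 4 h and sham, beside 1.55% of all genes. It was at 397, 490, 359 and 467 CPM in Luc replicates 1 to 4 and at 135 and 183 CPM in the sham replicates. Every Luc library was well above both sham libraries, at 2.69 times their mean (log2 fold change 1.43, SE 0.25, q = 0.00293). The call depended on sham replicate 1, without which it was lost, at a log2 fold change of 1.21 with 1 sham library left. Without sham replicate 2 the log2 fold change was 1.64. Angpt2, Tie1, Kdr and Aplnr had all Luc libraries above both sham libraries and Angpt1 had all below them without a call (0.46 to 0.70 on the log2 scale for the former, and 0.469 times the sham mean for Angpt1). With Vegfa this makes 5 of 10 members wholly above sham and 1 wholly below, where 17.2% of all genes tested lay wholly above and 15.3% wholly below. Fitted on the sham and Luc 4 h libraries alone, 4 members were called, Vegfa, Kdr, Angpt1 and Angpt2, beside 4.75% of all genes. Of the other pathway genes, Angptl4 (1.91), Egr3 (1.44) and Rcan1 (1.22) were higher at 4 h and none lower. Of the hypoxia-inducible genes none was called.

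Vegfa did not stay high. At 24 h the Luc libraries A, C and D were at 139, 94.3 and 93.4 CPM, each far under every Luc library at 4 h, and Vegfa fell by 1.98 on the log2 scale (SE 0.22, q = 1.52e-06), and at 48 h they were back at 183 to 277 CPM, a rise of 1.03 from 24 h (SE 0.22, q = 0.00112). Against sham the 24 h value was -0.55 (SE 0.27, q = 0.112), and the 48 h value was 0.48. With either of the other library scalings tried, Vegfa at 24 h was called lower than sham (q = 0.0351 and 0.0260). Vegfb went the other way late, from 198, 225 and 267 CPM at 24 h to between 114 and 126 CPM at 48 h, and it fell by 0.93 (SE 0.17, q = 0.000273), with all 4 libraries below both sham libraries (174 and 197 CPM). The values for time in this set are on a scale that shifts with normalization, as the median of all genes was 0.14 for 24 h against 4 h and -0.25 for 48 h against 24 h, and near 0 after median-ratio rescaling, under which the Vegfa changes were -2.15 and 1.27 and that of Vegfb was -0.69. With libraries scaled to equal totals the Vegfb change was -0.46 (q = 0.0144). From 24 h to 48 h, 9 of the 10 cardiomyocyte markers were called lower (median -0.68, sums of 78240 to 98070 CPM and then 42510 to 59220 CPM). So were 9 of the 18 endothelial markers (median -0.59, sums of 1608 to 1932 CPM and then 750.2 to 1254 CPM). Of the 10 neutrophil and monocyte markers, 6 were called higher and 1 lower (Lcn2), with overlapping sums (289.4 to 1197 CPM and then 264.0 to 747.0 CPM). Their part in the Vegfa and Vegfb results was not tested.

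Of the 10 members, 2 differed between Luc at 24 h and sham (34.1% of all genes did), 3 between Luc at 48 h and sham (30.1%), 2 between 24 h and 4 h (32.3%) and 3 between 48 h and 24 h (41.9%). The share of members called was at or under the share of all genes in each of these comparisons. Angpt1 was at 26.8 and 17.8 CPM in sham, at 9.39 to 11.9 CPM in Luc at 4 h and at 9.48, 5.44 and 6.23 CPM at 24 h, where it was called lower (log2 fold change -1.54, SE 0.50, q = 0.0213). That call was lost without sham replicate 1 (q = 0.196), Luc 24 h C (q = 0.0621) or D (q = 0.0543). Angpt2 at 48 h was at 10.3, 4.64, 4.74 and 7.16 CPM in Luc replicates 1 to 4 against 3.19 and 3.24 CPM in sham (0.81, SE 0.29, q = 0.0357), and this call was lost without either sham library (q = 0.151 and 0.120), without Luc replicate 1 (0.109) or 4 (0.0611), with library weights (0.254), with no filter on low values (0.0532) and with the compared groups alone (0.106). Vegfb at 48 h against sham (-0.63, SE 0.19, q = 0.0163) was lost without either sham library (q = 0.0508 and 0.121) and with the compared groups alone (q = 0.0510).

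Aplnr was likewise lower at 24 h than at 4 h. It was at 18.1 and 11.5 CPM in sham, at 19.3 to 21.7 CPM in Luc at 4 h, and at 2.22, 4.60 and 6.19 CPM at 24 h, with no overlap between 4 h and 24 h (log2 fold change -2.07, SE 0.41, q = 0.000723). Against sham it was lower at 24 h (-1.61, SE 0.49, q = 0.0144) and at 48 h (-1.41, SE 0.46, q = 0.0244). The 24 h call was lost without sham replicate 1 (q = 0.168) or Luc 24 h A (q = 0.0681), and the 48 h call without sham replicate 1 (q = 0.223) or Luc 48 h replicate 1 (q = 0.0786) or 3 (q = 0.0714), and also with library weights (q = 0.197), equal totals (q = 0.0613) or the compared groups alone (q = 0.129). Apln in Luc was at 8.54 to 17.7 CPM at 24 h and at 18.1 to 31.6 CPM at 48 h, a rise of 0.95 (SE 0.25, q = 0.00524).

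The Luc libraries at 48 h were not alike. Replicates 1 and 3 held Angpt1 at 5.33 and 3.08 CPM and Aplnr at 1.64 and 2.69 CPM, and replicates 2 and 4 held Angpt1 at 20.5 and 23.8 CPM and Aplnr at 7.68 and 12.4 CPM. The ratio of Angpt2 to Angpt1 was accordingly 1.94 and 1.54 in the first pair and 0.226 and 0.302 in the other. The neutrophil and monocyte sum was 747.0 and 531.1 CPM in replicates 1 and 3 and 318.6 and 264.0 CPM in replicates 2 and 4, the cardiomyocyte sum 59220 and 50060 against 44330 and 42510 CPM, and the endothelial sum 1254 and 1097 against 750.2 and 910.2 CPM. Their part in the result was not tested.

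At 24 h the Luc hearts of this set and the uninjected MI hearts gave different values for the members against their own sham hearts. Angpt2 was 1.51 times sham without a call (log2 fold change 0.40, q = 0.321) where the uninjected hearts had 4.85 times, Apln was at -0.39 (q = 0.333) against 1.49, and Kdr, Flt1 and Tie1 were at 0.58, 0.52 and 0.58, all without a call, against -1.49, -0.53 and -0.73. Angpt1 and Aplnr were lower in both, at -1.54 and -1.61 in Luc and -2.14 and -2.09 in uninjected hearts. The tables were normalized separately, so these differences were not tested. The cardiomyocyte sum was between 78240 and 98070 CPM in Luc at 24 h, above its sham range, and the neutrophil and monocyte sum was between 289.4 and 1197 CPM. The sum over all listed genes was higher too, at 730630 to 818456 CPM in Luc at 24 h against 619752 and 628938 CPM in sham. Marker sums in CPM therefore shift with the scaling here. In the Luc hearts, 8 of 18 endothelial markers were higher at 24 h and 2 lower, with a summed level of 1608 to 1932 CPM against 1052 to 1239 CPM in sham. Of 27 pathway genes, 14 were higher and 1 lower, again led by Angptl4 (3.53) and Pgf (3.14), and of 15 hypoxia-inducible genes 3 were higher and 1 lower. Of all calls for Luc at 24 h against sham, 74.2% were higher, and 42.6% with libraries scaled to equal totals.

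**Figure D4:**
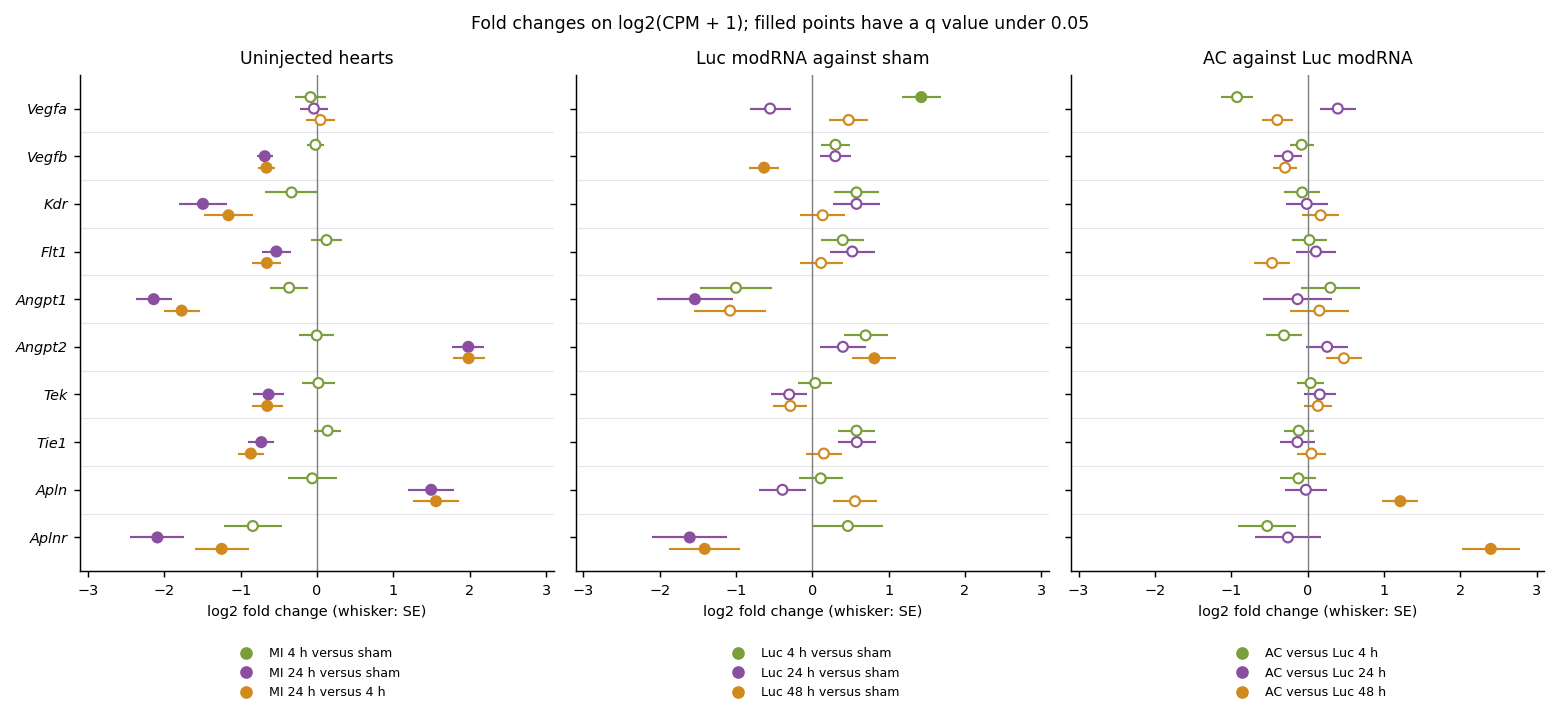
Log2 fold changes of the 10 members on the log2(CPM + 1) scale with their SE, in uninjected hearts (left), Luc modRNA hearts against sham (middle) and AC against Luc modRNA (right), with filled points for q values under 0.05. On the left 9 members are filled at 24 h against sham, and on the right only Apln and Aplnr at 48 h.

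AC against Luc modRNA, the comparison within each time, was called for no member at 4 h and at 24 h, where 0.00796% of all genes, a single gene, was called at each time. At an unadjusted p under 0.05 the counts of members were 1 at 4 h, beside 1.04% of all genes, and 0 at 24 h, beside 4.77%. The 1 member was Vegfa at 4 h, at 187, 232, 213 and 268 CPM in AC against 359 to 490 CPM in Luc. All 4 AC libraries were under all 4 Luc libraries, with a mean 0.526 times that of Luc, and the log2 fold change was -0.93 (SE 0.21, q = 1), and limma's unadjusted p was 0.000181. It was called with library weights (-0.95, q = 0.00483) and in none of the other alternatives. The AC libraries at 4 h lay above both sham libraries (135 and 183 CPM). At 24 h, Vegfa was at 88.0, 222 and 142 CPM in AC and overlapped Luc (0.39). For the other 9 members, the log2 fold changes were between -0.53 and 0.30 at 4 h, both for genes with overlapping groups, Aplnr and Angpt1.

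At 48 h, AC differed from Luc in 2 members, the apelin gene and its receptor gene, both upward, beside 15.3% of all genes. Apln was at 49.7, 61.2, 53.2 and 61.6 CPM in AC replicates 1, 2, 4 and 5 and at 23.6, 23.1, 18.1 and 31.6 CPM in Luc replicates 1 to 4. The lowest AC library held more than the highest Luc library, and the mean was 2.34 times that of Luc (log2 fold change 1.21, SE 0.24, q = 0.00160). Aplnr was at 23.4, 31.3, 35.9 and 28.9 CPM in AC and at 1.64, 7.68, 2.69 and 12.4 CPM in Luc. Again the groups did not overlap, and the mean was 4.91 times that of Luc (2.40, SE 0.38, q = 0.000245). Both calls held with each of the 8 libraries left out, with log2 fold changes of 1.09 to 1.35 for Apln and 2.02 to 2.80 for Aplnr. All 4 AC values of both genes were also above both sham libraries (15.3 and 16.2 CPM for Apln, 11.5 and 18.1 CPM for Aplnr), which was not tested.

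Whether the AC difference changed between the times was tested directly, though time cannot be told apart from the naming series of the titles. For Aplnr, the AC difference at 48 h exceeded that at 24 h by 2.66 (SE 0.58, q = 0.0154), and this member was the 1 called, beside 2.56% of all genes. Against 4 h it exceeded it by 2.93 (SE 0.53, q = 0.00652), and for Apln by 1.33 (SE 0.33, q = 0.0281), so 2 members were called, beside 3.35% of all genes. Apln at 48 h against 24 h was at 1.24 (SE 0.36, q = 0.0680). Vegfa at 24 h against 4 h was at 1.32 (SE 0.32, q = 1). No other member was called in any of these 3 tests.

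The other 8 members at 48 h had log2 fold changes between AC and Luc from -0.47 (Flt1, SE 0.23, q = 0.174) to 0.47 (Angpt2, SE 0.23, q = 0.175). Angpt2 was called with library weights (0.81, q = 0.00514), and Vegfb, at -0.30 without a call, was called with median-ratio scaling (-0.44, q = 0.0470). Vegfa was at 159 to 176 CPM in AC and at 183 to 277 CPM in Luc, without overlap and without a call (-0.40, q = 0.199). Kdr, Tek and Tie1, genes of endothelial receptors, were at 0.17, 0.13 and 0.05. The median of all genes was 0.14 in this comparison and 0.00 after median-ratio rescaling, under which Apln was at 1.07 and Aplnr at 2.27. Of all calls, 78.7% were higher and 50.7% after this rescaling.

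Of 27 pathway genes, 9 were higher in AC than in Luc at 48 h and none lower (median 0.38), and of 15 hypoxia-inducible genes 1 was higher and 2 lower. The endothelial markers had 1 higher and 1 lower, with sums of 854.1 to 1023 CPM in AC and 750.2 to 1254 CPM in Luc. Cardiomyocyte markers had 3 of 10 lower, with sums of 30970 to 40540 CPM in AC and 42510 to 59220 CPM in Luc, and fibroblast markers had 4 of 7 higher, with sums of 1415 to 2166 CPM against 804.7 to 1230 CPM. For the neutrophil and monocyte list the sums were 253.2 to 332.9 CPM in AC and 264.0 to 747.0 CPM in Luc. Of its 10 markers, 2 were called higher (Ccr2 and Ptprc) and 2 lower (Retnlg and Lcn2). The part of these cell types in the Apln and Aplnr results was not tested.

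For each member, the gene outside the list with the most similar pattern over the 10 uninjected libraries was found by Pearson correlation of log2(CPM + 1), and the same pair was then read in the 24 modRNA libraries. These are descriptions, and the libraries of a set share their groups. Tie1 was most like Ptprb, the gene of the phosphatase that acts on TIE2, with r = 0.98 over 10 libraries and 0.43 over 24. Flt1 was most like the endothelial receptor gene Adgrl4 (0.98 and 0.41), Kdr was most like Pacsin2 (0.99 and 0.47) and Tek was most like Fbxl7 (0.98 and 0.60). Angpt2 was nearest Snai1 (0.99 and 0.69), Vegfb nearest the coenzyme Q gene Coq5 (0.995 and 0.95), Apln nearest Lxn (0.99 and 0.92) and Aplnr nearest Rpgrip1l (0.99 and 0.87). Angpt1 and Lrrc56 (0.99) and Vegfa and Fcna (0.82) did not go together in the modRNA set, at -0.21 and -0.02.

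Since Vegfa is a textbook hypoxia target, the promoters were searched for ACGTG, a form of the core of the hypoxia response element. RefSeq start sites on GRCm38.p6 gave 8 windows of 300 bases, 250 before and 50 after a start, for 7 members, and the letters ACGTG on either strand were found in 1 of them, against 19.6% of all 32851 windows. The match lies 211 bases before an internal annotated start of Vegfa. It is printed within the stretch chr17:46025357-46025386 of the minus strand. The capitals mark the match, which reads on the opposite strand.
Vegfa: ggagtgcgtgccCACGTcagagagcaacat
In GENCODE M21 this stretch lies inside a coding exon (46025347 to 46025543) of 8 other Vegfa transcripts. It is a match of letters and not a site. The other Vegfa window (46032328 to 46032627) and the windows of the other members hold no ACGTG. Other forms of the core, such as GCGTG, were not counted. Sequence more than 250 bases before a start was not searched. An element of either kind would be missed.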

How the data were processed

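Poly(A) RNA of the LV was sequenced, in the uninjected set from the ischemic area or the matching area of sham hearts. For the uninjected set, the authors used STAR for alignment to mm10, Partek Flow's expectation maximization for counting on RefSeq genes and TMM for normalization, and deposited CPM. The aligner and counter of the modRNA set are not given in the sources used here. It is deposited as CPM to which 1 had been added, and 1 was subtracted. Whether counting used strand is not stated. Of the uninjected values, 81.5% to 83.7% of those under 1 CPM per library were whole multiples of 1 read (tolerance 0.02 reads), too few to recover counts. Partek's own test was not used. Limma (version 3.58.1, R 4.3.3) was fitted to log2(CPM + 1) with a trended variance prior, without covariates and two-sided, for the 12487 and 12555 genes whose mean reached 1 CPM, and was checked on simulated data. Summaries used Python 3.11.15, pandas 2.3.3 and numpy 2.4.6. Levels per length used exons of GENCODE M21. Named genes were all members, up to 3 rises and 3 falls of each list, and the most similar gene of each member. Members, lists and tests were chosen with earlier results of these data known. Alternatives were a pseudocount of 0.1, other filters (none, 5 CPM), no trend, library weights, 2 rescalings, the compared groups alone, no subtraction, a replicate block and each library left out.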

Additional observations from a re-analysis of the deposited data

Results flagged for a closer look

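Dixon's check of single libraries was applied to the 5 groups of 4 libraries for each member, 50 checks in all, of which 4 were past its critical value and about 2.5 would be by chance at 1 in 20. Heart G at 24 h post-MI was far above the other 3 hearts of its group for Kdr, at 108 CPM against 36.5 to 43.1 CPM, and for Angpt1, at 7.57 CPM against 3.49 to 3.79 CPM. For Angpt2 it was heart C, at 30.4 CPM against 15.0 to 17.0 CPM. In the AC 4 h group, replicate 4 held Angpt2 at 7.16 CPM against 3.53 to 4.03 CPM. The same heart G had the highest cardiomyocyte and the lowest neutrophil and monocyte sum of its group, and the part of either in its Kdr and Angpt1 values was not tested.

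The change against sham differed between time points for 9 members in uninjected hearts. Sham is shared by the times and cancels out. The values here, for uninjected and Luc hearts, are thus those of the limma comparisons between times given above. They are not a further test. From 4 h to 24 h post-MI, the log2 effects differed by 1.98 for Angpt2, 1.56 for Apln, -0.66 for Flt1, -1.16 for Kdr, -0.65 for Tek, -0.87 for Tie1, -0.66 for Vegfb, -1.77 for Angpt1 and -1.25 for Aplnr. In Luc hearts, the effects differed between 4 h and 24 h by -1.98 for Vegfa and -2.07 for Aplnr. Between 24 h and 48 h they differed by 1.03 for Vegfa, 0.95 for Apln and -0.93 for Vegfb. There, time cannot be told apart from the naming series of the titles.

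The AC difference from Luc was larger at 48 h than at 24 h by 2.66 for Aplnr, and larger than at 4 h by 2.93 for Aplnr and by 1.33 for Apln on the log2 scale. Here too, time cannot be told apart from the naming series.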

How the results depend on the processing

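Of 1760 recomputed values of single members, 1705 kept their side of the threshold, 31 lost a call, 24 gained one and 0 of those called in either fit reversed. With library weights the count of members called went from 0 to 1 for MI 4 h against sham (Aplnr) and for AC against Luc at 4 h (Vegfa), from 3 to 1 for Luc 48 h against sham, from 2 to 4 for Luc 24 h against 4 h from 3 to 5 for Luc 48 h against 24 h and from 2 to 3 for AC against Luc at 48 h (Angpt2). With median-ratio scaling the last of these also went from 2 to 3 (Vegfb). With the compared groups alone it went from 1 to 4 for Luc 4 h against sham and from 3 to 0 for Luc 48 h against sham, where fewer samples estimate the spread. Leaving out single libraries gave counts of 7 to 9 for MI 24 h against sham and against 4 h, 0 to 1 for Luc 4 h against sham, 0 to 3 for Luc 24 h against sham, 0 to 4 for Luc 48 h against sham, 2 to 3 for Luc 24 h against 4 h, 3 to 4 for Luc 48 h against 24 h and 2 to 2 for AC against Luc at 48 h. The lowest counts against sham in the modRNA set, 0 in each, came without sham replicate 1, which leaves 1 sham library whose spread is taken from the other groups. Leaving out a library left a count of 0 for MI 4 h against sham and for AC against Luc at 4 h and 24 h.

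With a replicate block, the counts of members stayed at 0, 9 and 9 in the uninjected comparisons, 1 for Luc 4 h against sham and 0, 0 and 2 for AC against Luc at 4, 24 and 48 h. Deviations of same-numbered libraries correlated between -0.206 and 0.345, and not every pair was over 0.1. Values for differently numbered libraries are not given beside them, so whether the numbers pair the samples cannot be told. In the uninjected set the block was the replicate letter across all groups, so it links libraries of different times. In the modRNA set it was the replicate label within a time label, so there it links no libraries of different time labels. No replicate block across time labels was run for the other Luc comparisons.

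Scaling moved the whole modRNA table. The share of calls that were higher went from 74.2% to 52.9% and 42.6% (median-ratio and equal totals) for Luc 24 h against sham, from 75.9% to 52.5% and 48.3% for Luc 24 h against 4 h, from 22.3% to 48.9% and 77.3% for Luc 48 h against 24 h, from 45.4% to 50.5% and 65.9% for Luc 48 h against sham, and from 80.9% to 77.3% and 69.9% for Luc 4 h against sham. For MI 4 h against sham it went from 65.5% to 67.1% and 48.8%. The depth of the modRNA libraries is unknown, so counting error could not be given there, and members near 2 CPM, as Aplnr in Luc at 24 h, rest on an unknown number of reads. Scaling to equal totals gave log2 medians over all genes of 0.18 for Luc 48 h against 24 h and -0.11 for Luc 24 h against sham.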
